A study of Mus musculus with 12 samples.

Results

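The mitochondrial ribosomal protein genes are the nuclear genes named Mrpl (large subunit) or Mrps (small subunit). They were taken as every gene symbol made of Mrpl or Mrps, a number and at most 1 further letter, and names ending in -ps, which mark pseudogenes, were left out. The deposited table listed 48321 genes, of which 77 matched: 48 Mrpl genes and 29 Mrps genes. Of these 77 members, 76 reached 10 normalized counts in 3 or more of the 12 libraries, the filter used here, and Mrpl53 had no read in any library.

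Immortalized brown preadipocytes, derived from the interscapular brown fat of a wild-type newborn mouse and carrying the SV40 large T antigen, were transduced with a lentivirus holding either the empty pLEX vector or tSema4B, a truncated and soluble Sema4B that mimics the ectodomain released by the protease ADAM17. Each construct was represented by 1 stable, puromycin-selected line, and both lines were differentiated over 8 days, with insulin and triiodothyronine throughout and rosiglitazone, IBMX and dexamethasone in the medium of days 0 and 2 alone. The adipocytes were then kept in serum-free medium for 6 h without stimulation or with 2 μM norepinephrine (NE), the catecholamine that activates thermogenesis in brown fat through beta-adrenergic receptors. Bulk RNA-seq gave 3 libraries for each of the 4 combinations of line and stimulation. The 3 are labelled as technical replicates. The p-values thus measure the spread between these libraries only, and a difference between the lines cannot be told apart from a difference between single transduced cultures.

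The mitochondrial ribosome translates the few proteins encoded by mitochondrial DNA, all of which are subunits of the respiratory chain and ATP synthase. Its rRNAs are made inside the organelle, whereas all of its proteins are encoded in the nucleus, translated in the cytosol and imported, so that assembly needs both genomes. Some of its proteins descend from bacterial ribosomal proteins and others are found only in mitochondria. Brown adipocytes are rich in mitochondria, and their heat production by Ucp1 depends on a respiratory chain that this ribosome helps to make.

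Among the members that passed the filter, no gene was higher in tSema4B cells than in vector cells, and 14 were lower without stimulation and 29 after NE. These were 18.4% and 38.2% of the members, against 7.39% and 11.2% of all genes tested, while 5.64% and 9.79% of all genes were higher. Genes of both subunits were among them. Mrps22 and Mrpl12 had the smallest adjusted p in both conditions, at 0.489 of the vector level without stimulation and after NE, respectively. The largest called differences in size were those of Mrps22 without stimulation and of Mrps33 after NE. The value of Mrps33 is uncertain, because its counts were low and it has a pseudogene copy of 99.7% identity. Its call was lost under some alternatives. NE raised 11 members in vector cells (14.5%, against 6.82% of all genes) and 2 in tSema4B cells (2.63%, against 3.68%, so no excess over all genes). The counts without stimulation and for NE in vector cells came near the share of all genes when single libraries were left out. The NE response of no member differed between the lines at the adjusted threshold.

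Total reads on genes ranged from 2000780 to 5409583 per library, and were lower in tSema4B than in vector libraries within each condition. Reads from mitochondrial DNA made up 13.4 to 16.7% of a vector library and 6.91 to 7.89% of a tSema4B library. Sema4b, the overexpressed gene, had 110786 to 124008 normalized counts in unstimulated vector libraries and 258257 to 316850 in unstimulated tSema4B libraries, and 65472 to 81754 and 208760 to 270694 after NE. The order fits the labels, but the vector libraries also held many Sema4b reads, counts per gene do not separate the truncated from the full-length transcript, and the source of the reads in vector libraries was not tested. Of 16 brown adipocyte markers, 15 passed the filter and Dio2 had no read. Their summed level was 42102 to 48301 normalized counts in unstimulated vector libraries against 7394 to 10117 in unstimulated tSema4B libraries, and 56073 to 67539 against 11354 to 12881 after NE, with 13 of 15 lower in tSema4B in each condition. The summed level of 12 preadipocyte markers, of which 11 passed, was 16826 to 17444 against 31524 to 35858 without stimulation and 13919 to 16007 against 29588 to 31418 after NE. Of the lists for other cells, Adgre1, Ptprc and Mrc1 of the macrophage list, Kdr of the endothelial list and Myod1, Myog and Ckm of the muscle list had no read, and the sum of each list stayed at or below 36.3 normalized counts in every library.

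The promoters of the members were compared with those of all genes, because mitochondrial genes in the nucleus are often bound by the factor NRF1 and by ETS-family factors such as GABP. Of the 77 members, 68 had a promoter in the RefSeq table for GRCm38.p6, and the 250 bases before the annotated start were searched on both strands. The NRF1 letters (GCGCA, any 1 base, then GCGC) were found in 10 of 68 members (14.7%), against 4.23% of 27025 genes with a promoter and 5.84% of the 17491 protein-coding ones. The ETS letters CCGGAAG were found in 17 members (25%), against 7.83% of all and 10.2% of protein-coding genes, and TATAAA in 5 members (7.35%), against 14.3% and 13.7%. A match is only a match of letters, not a measured binding site, and the absence of a match says nothing of the factor.

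Promoter sequences are printed for 5 of the members that were lower in tSema4B cells in both conditions and hold 1 of these motifs. Each line gives the 150 bases before the RefSeq start on the gene's own strand, from GRCm38.p6, with the motif in capitals. The first 3 hold the NRF1 letters and the last 2 the ETS letters.
Mrpl12, chr11:120484487-120484636, plus strand: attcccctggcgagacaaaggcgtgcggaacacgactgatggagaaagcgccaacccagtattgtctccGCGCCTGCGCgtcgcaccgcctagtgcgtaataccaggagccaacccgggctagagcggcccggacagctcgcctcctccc
Mrpl57, chr14:57826089-57826238, plus strand: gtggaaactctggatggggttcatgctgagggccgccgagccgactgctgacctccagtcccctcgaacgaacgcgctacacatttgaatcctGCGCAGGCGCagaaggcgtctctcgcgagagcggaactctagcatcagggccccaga
Mrpl9, chr3:94443186-94443335, plus strand: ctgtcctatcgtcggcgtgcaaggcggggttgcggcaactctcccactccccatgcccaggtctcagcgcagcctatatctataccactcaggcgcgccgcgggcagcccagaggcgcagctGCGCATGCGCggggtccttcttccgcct
Mrps22, chr9:98601680-98601829, minus strand: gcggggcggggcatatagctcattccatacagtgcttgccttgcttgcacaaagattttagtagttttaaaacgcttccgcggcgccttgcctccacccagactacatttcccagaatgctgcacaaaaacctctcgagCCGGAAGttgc
Mrpl3, chr9:105053118-105053267, plus strand: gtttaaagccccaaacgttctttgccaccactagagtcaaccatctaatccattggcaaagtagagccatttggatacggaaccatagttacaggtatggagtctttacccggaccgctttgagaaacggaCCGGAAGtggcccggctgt
In Mrps22 the ETS letters begin 11 bases before the start, and in Mrpl12 the NRF1 letters begin 81 bases before it. Members with and without the NRF1 letters had median log2 differences of -0.11 and -0.27 between tSema4B and vector without stimulation and of -0.47 and -0.43 after NE. For the ETS letters the medians were -0.10 and -0.27 without stimulation and -0.45 and -0.43 after NE.

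Summed over all members, the level was 12732, 12068 and 12353 normalized counts in the 3 unstimulated vector libraries and 10570, 9094 and 11235 in the unstimulated tSema4B libraries. After NE it was 14311, 15700 and 14922 in vector libraries and 11892, 10767 and 10486 in tSema4B libraries. The tSema4B libraries were below all vector libraries of the same condition, and the vector NE libraries were the highest of the 4 groups. In these bulk samples, fewer cells of a type and less RNA per cell cannot be told apart. The members took 0.294 to 0.490% of all reads, and 0.316 to 0.585% of reads from nuclear genes.

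**Figure D1:**
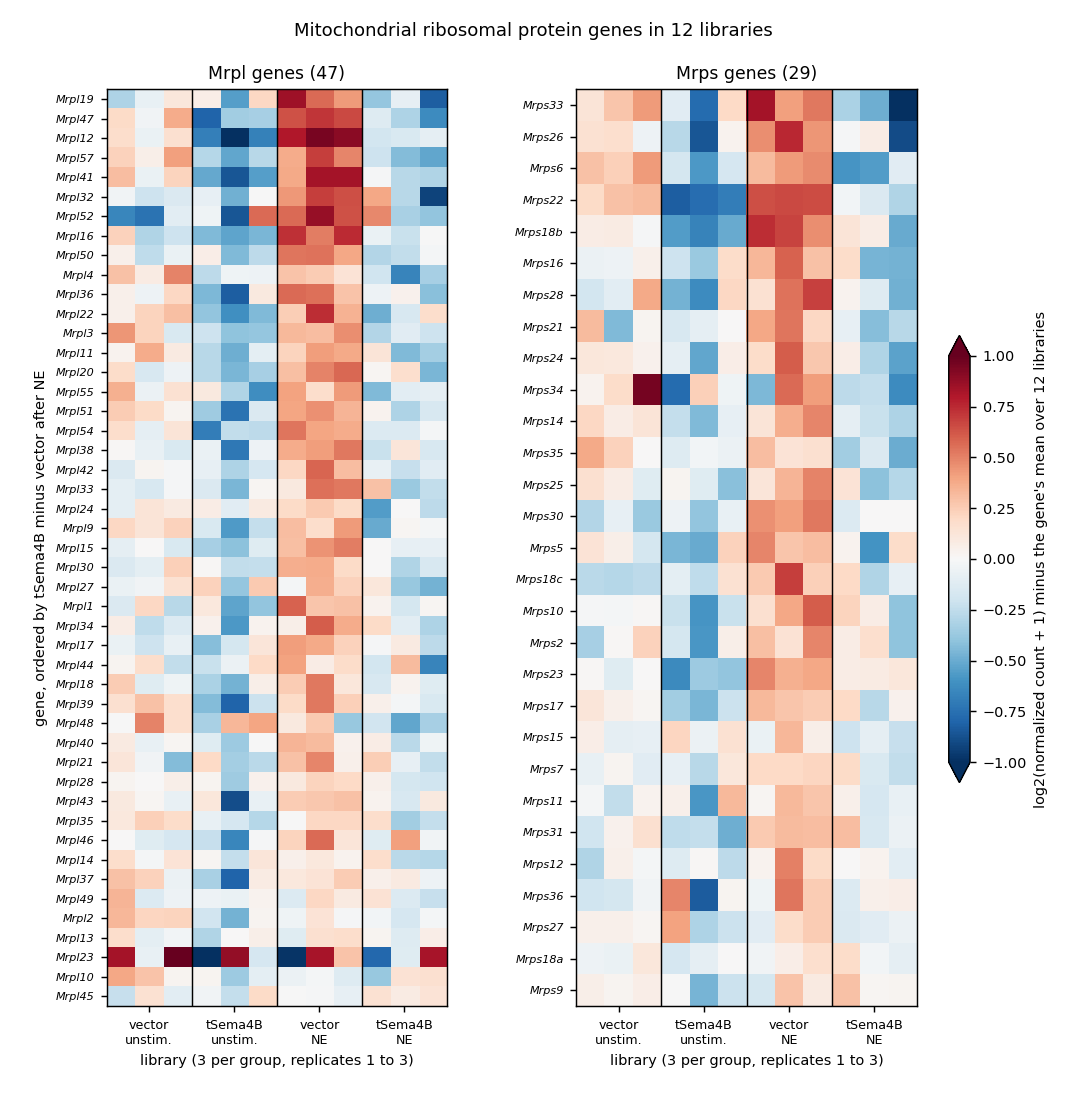
Heat map of the 76 members that passed the filter (left, 47 Mrpl genes; right, 29 Mrps genes) in the 12 libraries, as log2(normalized count + 1) minus the gene's mean over the libraries, with genes ordered by the tSema4B minus vector difference after NE and the colour scale limited to 1 in each direction. The columns of vector NE are mostly red, and the bluest column is replicate 2 of unstimulated tSema4B, which holds the lowest value of 40 members.

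Levels of different genes were compared per kilobase of exon (GENCODE M21, GRCm38). The length held every exon base annotated for a gene over all its transcripts, so the ranking also depends on the annotation. Mrpl13, with 7936 exon bases, ranked 2 of 77 by mean normalized count (368) but had 46.4 per kilobase. Mrpl28, Mrpl34 and Mrps21, relatives of bacterial L28, L34 and S21, had the highest mean levels over the 12 libraries, at 284.8, 218 and 217 normalized counts per kilobase. Mrpl28 was the highest in each of the 4 groups, but the next ranks differed by group. In unstimulated vector cells Mrpl14 (217) was above Mrps21 (212) and Mrpl34 (199). The lowest among members that passed the filter were Mrpl23, Mrpl48 and Mrps34, at 1.64, 7.56 and 8.71. The median over the 77 members was 56.1. The 3 members highest over the 12 libraries did not pass the adjusted threshold without stimulation. Their log2 differences were -0.13 for Mrpl28, -0.06 for Mrpl34 and -0.05 for Mrps21. After NE, Mrps21 was lower in tSema4B cells (-0.64 ± 0.18, limma adjusted p = 0.0144), a call lost without vector NE replicate 2 (adjusted p = 0.0762) or tSema4B NE replicate 2 (adjusted p = 0.0600), and the differences of Mrpl28 and Mrpl34 were -0.28 (adjusted p = 0.103) and -0.42 (adjusted p = 0.153).

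Counting could not separate every member from similar genes. For 19 members the annotation held a pseudogene copy of at least 95% identity over at least 200 bases, and 3 such copies had a higher mean level than their member: Mrpl23-ps1 (53.0 normalized counts, against 8.02 for Mrpl23), Gm5776 (33.5, against 31.8 for Mrps33) and Mrps36-ps1 (29.1, against 20.7 for Mrps36). The values of Mrpl23, Mrps33 and Mrps36 are therefore uncertain. Exons of 32 members overlapped another gene, over more than 30% of the exon bases in Mrpl19, Mrpl43, Mrpl53, Mrps18b, Mrps25 and Mrps34, and whether the counting used strand was not given in the sources used here. In Mrpl53, 88.0% of the exon bases are shared with Gm42688.

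The first comparison asked how tSema4B cells differed from vector cells without stimulation. At an adjusted p of 0.05 or less (limma, Benjamini-Hochberg over 11998 genes), 14 of 76 members (18.4%) were lower and none was higher, against 7.39% of all genes lower and 5.64% higher. None of the members was higher at an unadjusted p under 0.05 either. On the recovered reads, edgeR and DESeq2 gave 12 and 13 lower (15.8% and 17.1%, against 7.31% and 7.63% of all genes). Both gave 0 higher (against 5.49% and 6.40%). The median log2 difference of the members was -0.26, with quartiles of -0.46 and -0.08, and 68 of 76 were negative, whereas the median over all genes was 0.00 within rounding (-0.0025). The 3 tSema4B libraries lay below all 3 vector libraries in 27 members (35.5%), against 15.1% of all genes, and above them in 1, Mrps18c, against 14.2%. Only Mrps22 also passed a log2 difference of 1 in size, a share set against 2.71% of all genes.

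Mrps22 is a small subunit protein found only in mitochondria. It was at 258, 278 and 282 normalized counts in vector libraries and at 128, 133 and 140 in tSema4B libraries. The groups were far apart, and tSema4B cells held 0.489 of the vector level. The log2 difference was -1.03 ± 0.13 (SE, n = 3 per group; limma adjusted p = 5.51e-06).

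Mrpl12, the stalk protein of the large subunit that recruits translation factors and also binds the mitochondrial RNA polymerase, was at 154, 130 and 152 normalized counts in vector libraries and at 84.6, 61.9 and 84.9 in tSema4B libraries. The highest tSema4B library was below the lowest vector library, and the log2 difference was -0.92 ± 0.17 (adjusted p = 0.00051).

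Mrpl39 and Mrpl41 are large subunit proteins without a bacterial relative. Mrpl39 was at 254, 277 and 255 normalized counts in vector libraries and at 168, 129.9 and 196 in tSema4B libraries, a log2 difference of -0.69 ± 0.15 (adjusted p = 0.00341). Mrpl41 was at 140.1, 108 and 132 against 78.7, 61.9 and 76.7, a difference of -0.80 ± 0.19 (adjusted p = 0.00671). In both genes the groups did not overlap, and replicate 2 was the lowest tSema4B library.

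Mrps6, the relative of bacterial S6, was at 229, 221 and 252 normalized counts in vector libraries and at 166, 125 and 167 in tSema4B libraries (log2 difference -0.62 ± 0.16, adjusted p = 0.0111). Mrpl51, another mitochondria-specific large subunit protein, was at 312, 298 and 266 against 204, 156 and 235 (-0.57 ± 0.15, limma adjusted p = 0.0112). Both separated the groups, and both lost the call when tSema4B unstimulated replicate 2 was left out (adjusted p = 0.0644 for Mrps6 and 0.0734 for Mrpl51). Mrps6 also lost it without vector unstimulated replicate 3 (adjusted p = 0.0503), and Mrpl51 without vector unstimulated replicate 1 (adjusted p = 0.0602).

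The other 8 members called in this comparison were Mrpl47, Mrpl57, Mrpl3, Mrpl9, Mrps17, Mrpl2, Mrps14 and Mrpl22, with log2 differences between -0.67 and -0.39. The count of 14 rested on few libraries. It was 5 without vector unstimulated replicate 1 (6.58% of members, against 4.88% of all genes), 8 without replicate 2 (10.5%, against 5.14%) and 6 without replicate 3 of that group (7.89%, against 6.32%), and 9 without tSema4B unstimulated replicate 1 (11.8%, against 6.55%). Without tSema4B unstimulated replicate 2, which had the fewest reads of all libraries and the lowest value of 40 of 76 members, 5 members were lower (6.58%) and 6.42% of all genes, so that the share of members called was near that of all genes, and the median log2 difference was -0.15. Mrpl12, Mrpl39, Mrpl41 and Mrps22 were called under every alternative run.

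**Figure D2:**
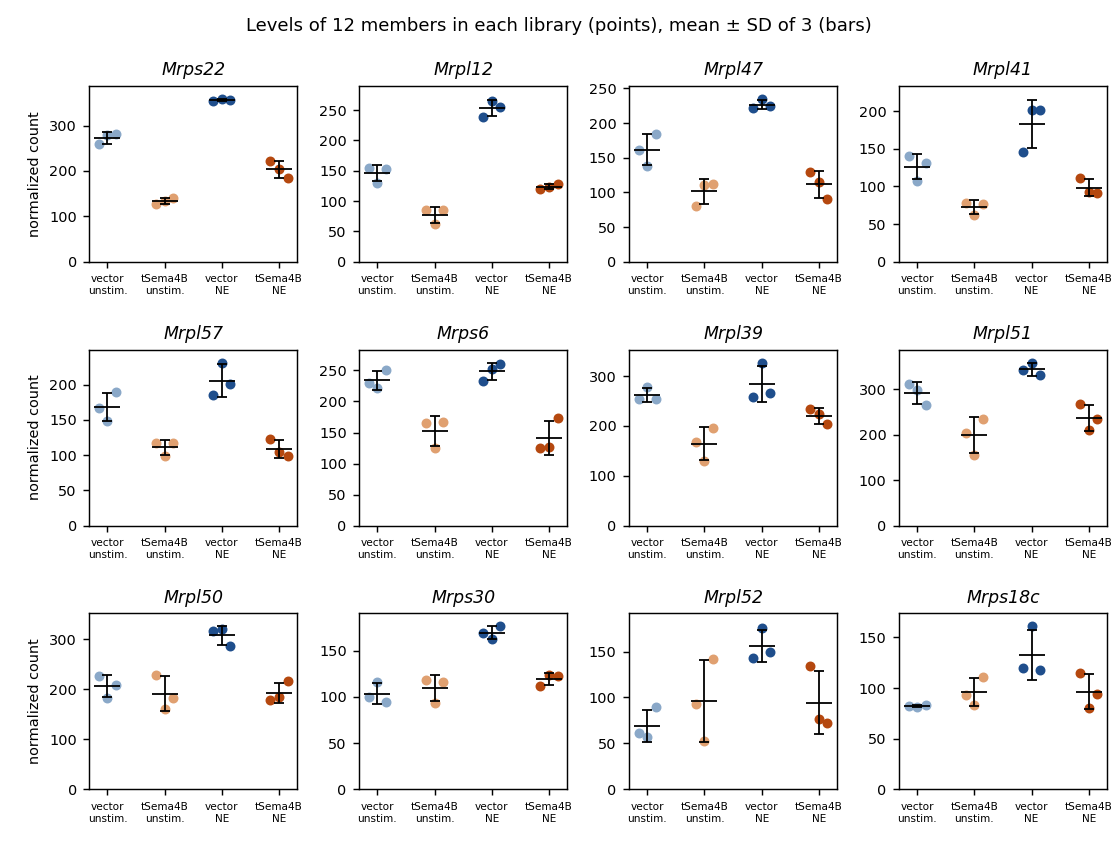
Normalized counts of 12 members in each library (points) with the mean and SD of 3 libraries (bars), for the 4 groups, with the vertical axis starting at 0. In Mrps22, Mrpl12, Mrpl47, Mrpl41, Mrpl57, Mrps6, Mrpl39 and Mrpl51 the tSema4B libraries lie below the vector libraries in both conditions, whereas in Mrpl50, Mrps30, Mrpl52 and Mrps18c they lie below them only after NE.

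The second comparison repeated the contrast in cells given NE. Here 29 of 76 members (38.2%) were lower in tSema4B cells and none was higher, against 11.2% of all genes lower and 9.79% higher (limma). No member was higher at an unadjusted p under 0.05. With edgeR and DESeq2, 35 and 34 were lower (46.1% and 44.7%, against 12.1% and 12.2% of all genes). Both gave 0 higher (against 10.6% and 11.5%). The median log2 difference was -0.47, with quartiles of -0.61 and -0.28, against -0.01 over all genes, and 73 members were negative. The groups did not overlap with tSema4B below vector in 49 members, against 19.8% of all genes, and with tSema4B above vector in 1, Mrpl45, against 17.9%. The count was 18 without vector NE replicate 2 (23.7% of members, against 8.09% of all genes) and 19 without tSema4B NE replicate 3 (25%, against 9.52%).

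Mrps22 was at 354, 357 and 356 normalized counts in vector NE libraries and at 222, 205 and 184 in tSema4B NE libraries. The log2 difference was -0.81 ± 0.13 (limma adjusted p = 8.8e-05). The 3 vector libraries were nearly equal and all above the tSema4B libraries. Mrpl12 was at 239, 264 and 256 against 120.1, 123 and 128, so that tSema4B cells held 0.489 of the vector level (-1.02 ± 0.17, limma adjusted p = 0.000123).

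Mrpl47, the relative of bacterial L29 near the exit of the nascent chain, was at 222, 234 and 225 normalized counts in vector NE libraries and at 129.8, 115 and 91.2 in tSema4B NE libraries. Its log2 difference of -1.03 ± 0.18 (adjusted p = 0.000274) compares with -0.67 ± 0.18 without stimulation, where the 3 values were 162, 139 and 184 against 81.0, 111 and 112. The groups did not overlap in either condition. Its call without stimulation was lost without vector unstimulated replicate 1 or 3 or tSema4B unstimulated replicate 1 (adjusted p = 0.0519, 0.0771 and 0.0846).

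Mrpl57, a small mitochondria-specific protein of the large subunit, was at 185, 231 and 200.3 normalized counts in vector NE libraries and at 123, 105 and 99.1 in tSema4B NE libraries (log2 difference -0.91 ± 0.17, adjusted p = 0.000452). Mrps6 was at 234, 252 and 261 against 124, 127 and 173 (-0.83 ± 0.16, adjusted p = 0.000744). Mrpl41 was at 146, 202 and 202 against 112, 92.8 and 91.2 (-0.88 ± 0.19, limma adjusted p = 0.00212). In each of the 3 genes every tSema4B library was below every vector library.

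Differences past 1 in size were found in Mrpl12, Mrpl47, Mrpl19 and Mrps33, 4 of 76 members against 3.73% of all genes. Mrpl19, the relative of bacterial L19, was at 108, 88.3 and 79.9 normalized counts in vector NE libraries and at 45.0, 55.9 and 33.0 in tSema4B NE libraries (-1.05 ± 0.27, adjusted p = 0.00719). Without stimulation it was at 47.8, 56.3 and 64.3 against 62.0, 40.2 and 68.5, with overlapping groups and a log2 difference of -0.01 ± 0.27. Mrps33, a small subunit protein of low count whose pseudogene copy is noted above, was at 53.8, 39.7 and 43.2 against 23.6, 20.8 and 13.2 (-1.23 ± 0.34, adjusted p = 0.0134), a call lost without vector NE replicate 1 (adjusted p = 0.0690), without tSema4B NE replicate 3 (adjusted p = 0.0606) and with reads thinned to equal depth (adjusted p = 0.0601).

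The calls under every alternative run were 12 of the 29: Mrpl12, Mrpl16, Mrpl19, Mrpl3, Mrpl4, Mrpl41, Mrpl47, Mrpl50, Mrpl57, Mrps14, Mrps22 and Mrps6. The lower depth, the lower sum of brown adipocyte markers, the higher sum of preadipocyte markers and the lower share of mitochondrial reads given above moved with the tSema4B line in both conditions, and their part in these differences was not tested, except that with every library thinned to the depth of the shallowest one 11 members were lower without stimulation (14.7%, against 6.91% of all genes) and 26 after NE (34.7%, against 11.2%).

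The contrasts without stimulation and after NE share no library. Lower in both were 10 members, Mrpl12, Mrpl3, Mrpl41, Mrpl47, Mrpl51, Mrpl57, Mrpl9, Mrps14, Mrps22 and Mrps6, which is 71.4% of the 14 and 34.5% of the 29. These 10 were 13.2% of the members tested, against 4.93% of all genes lower in both contrasts, whereas the overlap as a share of each list was 66.6% and 44.0% over all genes. Over the 76 members the log2 differences of the contrasts had a Pearson correlation of 0.26, as a description of genes measured in the same 2 lines. Of the 10 shared members, 6 held the NRF1 or the ETS letters in their promoter window, as did 26 of all 68 members with a promoter (38.2%), and without stimulation the median of the members with each motif was the less negative one, as given above. Mrpl23 had the most negative difference without stimulation, -1.42 ± 0.83, but it was measured on 0 to 20 reads per library, and its groups overlapped.

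**Figure D3:**
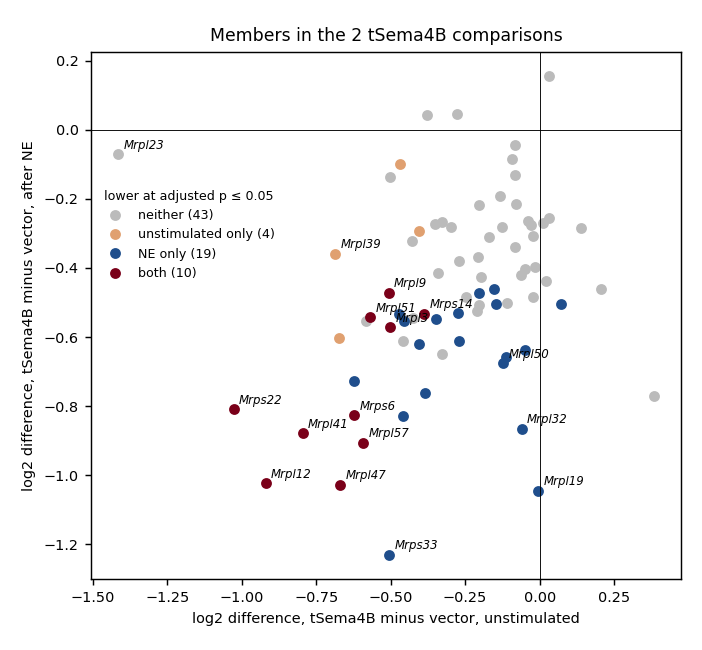
Log2 difference between tSema4B and vector without stimulation (horizontal axis) and after NE (vertical axis) for the 76 members, coloured by the contrasts in which limma called the member lower. Most points lie below 0 on both axes, 10 members were called in both contrasts, 4 without stimulation only and 19 after NE only.

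The third comparison gave the response of vector cells to NE. NE raised 11 of 76 members and lowered none, against 6.82% of all genes higher and 4.78% lower (limma), and no member was lower at an unadjusted p under 0.05. edgeR and DESeq2 gave 13 and 15 higher (17.1% and 19.7%, against 7.77% and 8.39% of all genes). Both gave 0 lower (against 5.36% and 6.16%). The median log2 difference of the members was 0.29, with quartiles of 0.14 and 0.45, against -0.02 over all genes, and 67 were positive. All 3 NE libraries were above all 3 unstimulated libraries in 35 members, against 17.6% of all genes, and below them in 2, against 15.7%. NE libraries of the vector line were deeper (4739777 to 5409583 reads) than unstimulated ones (2841941 to 3682634), and 9 members were higher after thinning to equal depth (12%, against 6.79% of all genes).

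Mrpl12 rose from 154, 130 and 152 normalized counts to 239, 264 and 256, or 1.74-fold (log2 difference 0.79 ± 0.17, limma adjusted p = 0.00311). Mrps30, named for the small subunit but placed in the large subunit, rose from 99.9, 116 and 94.8 to 169, 163 and 177 (0.71 ± 0.17, adjusted p = 0.00795). In both genes the lowest NE library was above the highest unstimulated library, and these 2 members were called under every alternative run.

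Mrpl52, a mitochondria-specific large subunit protein, rose from 60.8, 57.2 and 89.3 normalized counts to 142, 176 and 149.9, or 2.26-fold (log2 difference 1.19 ± 0.29, adjusted p = 0.00963). It was the only member past a difference of 1 in size, a threshold with the adjusted p that 1.66% of all genes passed upwards. Its call was lost without vector unstimulated replicate 2 (adjusted p = 0.0521).

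Mrpl16, which lies near the peptidyl transferase centre, rose from 111, 76.5 and 81.7 normalized counts to 157, 135 and 158 (log2 difference 0.75 ± 0.19, adjusted p = 0.0132). Mrpl50, a mitochondria-specific large subunit protein, rose from 226, 183 and 209 to 316, 319 and 286 (0.58 ± 0.15, adjusted p = 0.0136), and Mrpl15, the relative of bacterial L15, from 208, 222 and 199 to 273, 303 and 317 (0.50 ± 0.13, adjusted p = 0.0156). The groups did not overlap in any of the 3 genes, but each lost its call with some library left out, at adjusted p values of 0.0513 to 0.0878 over the 3. The libraries were vector unstimulated replicates 2 and 3 and vector NE replicates 1 and 3 for Mrpl16, vector unstimulated replicate 2 and vector NE replicates 1 and 2 for Mrpl50, and vector unstimulated replicates 1 and 3 and vector NE replicates 2 and 3 for Mrpl15. With reads thinned to equal depth, Mrpl16 and Mrpl50 also lost the call (adjusted p = 0.0596 and 0.0890).

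The other members raised by NE in vector cells were Mrps18c, Mrpl32, Mrpl20, Mrpl17 and Mrpl42, with log2 differences of 0.41 to 0.72. The count of 11 fell when any library of the contrast was left out. It was 6 without vector unstimulated replicate 1 (7.89% of members, against 4.89% of all genes), 3 without replicate 2 (3.95%, against 4.83%) and 4 without replicate 3 of that group (5.26%, against 5.13%). It was 5 without vector NE replicate 1 (6.58%, against 4.89%) and 4 without replicate 2 or replicate 3 of that group (5.26%, against 4.77% and 3.72%). The members' share of calls was thus near or below that of all genes without vector unstimulated replicate 2 or 3 or vector NE replicate 2.

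In tSema4B cells, NE raised 2 members, Mrps22 and Mrpl12, and lowered none, against 3.68% of all genes higher and 2.58% lower (limma). No member was lower at an unadjusted p under 0.05, and 9 were higher (11.8%, against 10.7% of all genes). With edgeR and DESeq2, 2 were higher each (2.63%, against 3.48% and 3.93% of all genes) and 0 lower (against 2.27% and 3.10%). The median log2 difference was 0.10, with quartiles of -0.02 and 0.25, against 0.00 within rounding over all genes (-0.0048), and 55 members were positive. The groups did not overlap with NE above unstimulated in 10 members, against 11.0% of all genes, and with NE below in 2, against 9.64%. The share of members in both kinds of count was thus near or below that of all genes.

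Mrps22 rose in tSema4B cells from 128, 133 and 140 normalized counts to 222, 205 and 184 (log2 difference 0.60 ± 0.13, limma adjusted p = 0.00509). Every NE library was above every unstimulated library. In vector cells its difference was 0.38 ± 0.13 (adjusted p = 0.0564), which passed the threshold with edgeR (adjusted p = 0.0363) and DESeq2 (adjusted p = 0.0185). Mrpl12 rose from 84.6, 61.9 and 84.9 to 120.1, 123 and 128 (0.69 ± 0.17, adjusted p = 0.0139), again without overlap. Mrpl12 was the only member that limma over the 12 libraries called for NE in both lines, and its call in tSema4B cells was lost without tSema4B unstimulated replicate 2 (adjusted p = 0.0643). Without that library the median of the members in this contrast was 0.0069, and 1 member was called. Fitted to the 6 tSema4B libraries alone, neither gene kept its call (adjusted p = 0.0689 for Mrps22 and 0.113 for Mrpl12).

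**Figure D4:**
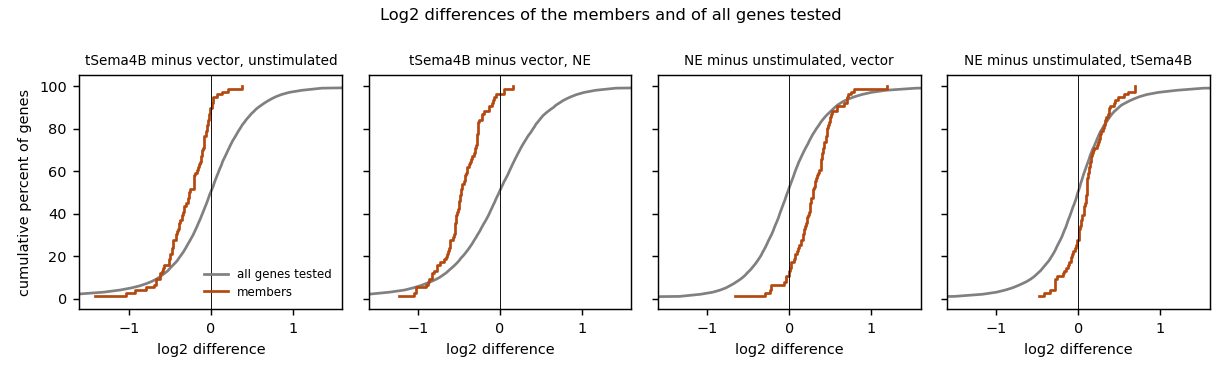
Cumulative percent of genes (vertical axis) against the log2 difference (horizontal axis) in the 4 contrasts between groups, for the 76 members (orange) and all 11998 genes tested (grey). The members' curve lies to the left of the grey curve in both tSema4B contrasts (medians -0.26 and -0.47), to the right for NE in vector cells (0.29) and closest to it for NE in tSema4B cells (0.10).

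Whether NE acted differently in the lines was tested as the interaction, the NE difference in tSema4B cells minus that in vector cells. No member passed the adjusted threshold in limma, edgeR or DESeq2, and in limma 0.025% of all genes passed upwards and 0.0% downwards. At an unadjusted p under 0.05, 7 members (9.21%) had a negative interaction and none a positive one in limma, against 5.21% and 5.02% of all genes. The median was -0.20, against 0.01 over all genes, and 57 of 76 members were negative. These values rested on single libraries. Without tSema4B unstimulated replicate 2 the median was -0.27 (0.0094 over all genes), and 13 members were negative at that unadjusted p. Without tSema4B unstimulated replicate 3 the median was -0.11 (-0.0034 over all genes), with 5 negative and 3 positive. The shares of all genes at that unadjusted p were not taken in these runs, so the 2 sets of counts cannot be read against them. No member passed the adjusted threshold in either run.

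The smallest unadjusted p was that of Mrpl52 (interaction -1.15 on the log2 scale, 95% interval -2.01 to -0.30, limma adjusted p = 0.319). In tSema4B cells its 3 values were 93.0, 52.6 and 142 normalized counts without stimulation and 134, 76.7 and 72.7 after NE, with overlapping groups and a wide spread. Mrpl19 followed at -1.04 (interval -1.82 to -0.26, adjusted p = 0.325). Mrpl50 followed at -0.55 (interval -0.99 to -0.11, adjusted p = 0.348), with 229, 161 and 182 normalized counts in unstimulated and 178, 184 and 215 in NE-treated tSema4B libraries. A difference in the NE response of these genes was not established at the adjusted threshold, and the intervals leave room for large ones.

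Both subunits were among the members called. By position in the ribosome, 50 members belong to the large subunit and 26 to the small subunit, while Mrps36 is a component of the 2-oxoglutarate dehydrogenase complex. The median log2 difference between tSema4B and vector was -0.20 over the 49 large and -0.28 over the 26 small subunit genes tested without stimulation, and -0.47 and -0.50 after NE. For NE in vector cells the medians were 0.26 and 0.31. Of the large subunit genes, 10 were lower without stimulation (20.4%) and 19 after NE (38.8%), and of the small subunit genes, 4 (15.4%) and 10 (38.5%), against 7.39% and 11.2% of all genes. NE raised 10 of the large subunit genes in vector cells (20.4%) and 1 of the small subunit genes, Mrps18c (3.85%), against 6.82% of all genes, a difference between subunits that was not tested.

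Members with a bacterial relative (46) and members specific to mitochondria (30 of 31 tested) had medians of -0.26 and -0.24 without stimulation and -0.47 and -0.51 after NE. Of the former, 9 (19.6%) and 17 (37.0%) were lower in the respective conditions, and of the latter, 5 (16.7%) and 12 (40%), against 7.39% and 11.2% of all genes. None of these groups of members was set against another by a test.

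The 3 Mrps18 paralogs, of which Mrps18a sits in the large subunit and Mrps18b and Mrps18c in the small subunit, had different values. Mrps18a was at 190 to 216 normalized counts in unstimulated vector and 178 to 199.9 in unstimulated tSema4B libraries, with a log2 difference of -0.08 ± 0.14, and of -0.04 ± 0.14 after NE. Mrps18b, over 30% of whose exon bases overlap an antisense gene, was at 92.1, 88.3 and 75.9 in vector NE libraries and at 60.1, 57.8 and 38.3 in tSema4B NE libraries (-0.73 ± 0.25, adjusted p = 0.0388), a call lost without any 1 vector NE library or tSema4B NE replicate 3 (adjusted p = 0.0648 to 0.170), with reads thinned to equal depth (adjusted p = 0.153), without a filter on low values (adjusted p = 0.0593) and with the same total over all genes (adjusted p = 0.0724). Mrps18c was at 82.5, 81.6 and 82.8 in unstimulated vector and at 93.0, 83.5 and 111 in unstimulated tSema4B libraries (0.21 ± 0.20, adjusted p = 0.564), and NE raised it in vector cells to 119.6, 161 and 118 (0.67 ± 0.20, adjusted p = 0.0312), a call lost when any 1 of the 6 vector libraries was left out (adjusted p = 0.0530 to 0.182). Mrps36 was at 10.8 to 28.6 in unstimulated and at 18.2 to 29.6 in NE-treated libraries, with overlapping groups in each contrast.

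Other genes of the same pathway were described by their counts, with no test of a list. The mitochondrial rRNAs mt-Rnr1 and mt-Rnr2 form the RNA core of this ribosome. Their normalized counts were both lower in tSema4B cells, by log2 differences of -1.05 and -0.94 without stimulation and -1.62 and -1.39 after NE. How far reads in these SMART-Seq2 libraries measure the amount of rRNA was not tested. Of the 13 mitochondrially encoded protein genes, which the ribosome translates, 8 passed the filter. Of these, 6 were lower without stimulation (75%) and 8 after NE (100%), with medians of -0.89 and -0.91. Of 79 nuclear respiratory chain genes tested, 41 (51.9%) and 60 (75.9%) were lower (medians -0.43 and -0.63). The shares of all genes lower were 7.39% and 11.2%.

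Other genes serve the ribosome without being part of it. Of 28 assembly and rRNA modification factors, 0 were lower without stimulation by limma, against 7.39% of all genes. At an unadjusted p under 0.05, 3 were lower there (10.7%, against 13.9%). After NE, 4 were lower (14.3%, against 11.2%), namely Rbfa, Ddx28, Trub2 and Slirp. Of 16 translation factors, Gfm1, an elongation factor, was lower without stimulation (-0.56) and Tsfm, the exchange factor of mitochondrial EF-Tu, after NE (-0.90). Each was 6.25% of the list, against 7.39% and 11.2% of all genes. Of 17 aminoacyl-tRNA synthetases, Lars2 was higher without stimulation (0.59), or 5.88% against 5.64% of all genes. Mars2 and Yars2 were lower after NE (-1.07 and -0.70), or 11.8% against 11.2%. Of 9 genes of mitochondrial DNA transcription and upkeep, Ssbp1 was lower after NE (-0.60), or 11.1% against 11.2%. The shares called in these lists were thus near or below those of all genes.

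Of 5 ribosomal proteins that carry other names, Ptcd3 was lower without stimulation (-0.70) and Chchd1 after NE (-1.03). Each was 20% of the list, against 7.39% and 11.2% of all genes. Mrpl58, a peptidyl-tRNA hydrolase built into the large subunit, was listed as Ict1, at 70.8 to 80.4 normalized counts in unstimulated vector and 64.97 to 94.5 in unstimulated tSema4B libraries. Of 10 transcriptional regulators, 3 were lower without stimulation (30%, against 7.39% of all genes) and 0 higher. The median was -0.21, and 4 of the 10 were positive, up to 0.41 in Ppargc1a, which was not called. The 3 were Nrf1, whose product binds the NRF1 letters (-0.74, limma adjusted p = 0.00789), Myc (-0.49) and Nrip1 (-0.87). After NE, 4 were lower (40%, against 11.2% of all genes) and 0 higher. The median was -0.57, and 2 of the 10 were positive, up to 0.36, again in Ppargc1a and not called. The 4 were Gabpb1, a GABP subunit (-1.08, limma adjusted p = 0.00227), Myc (-0.88), Pprc1 (-0.80) and Ppargc1b (-1.64).

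The cytosolic ribosomal proteins build the ribosome outside mitochondria. Of 81 tested, 6 were higher in tSema4B cells without stimulation (7.41%, against 5.64% of all genes) and 1 was lower (1.23%, against 7.39%). The median was 0.14. After NE, 35 were lower (43.2%, against 11.2%, median -0.49). NE raised 36 of them in vector cells (44.4%, against 6.82%, median 0.55). In tSema4B cells NE raised 0 by limma, against 3.68% of all genes (median -0.08). At an unadjusted p under 0.05, 3 were higher there (3.70%, against 10.7%).

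**Figure D5:**
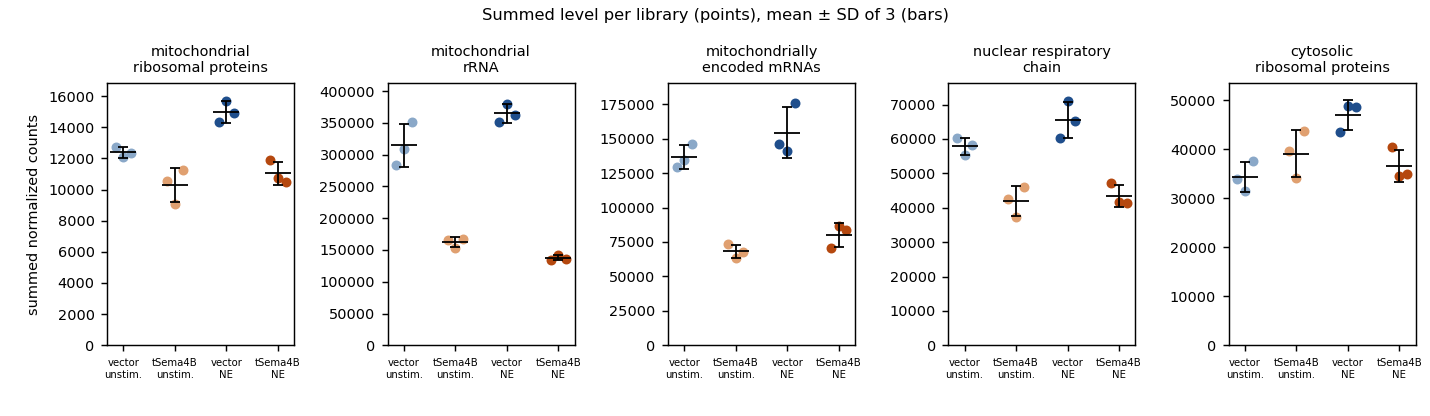
Summed normalized counts of 5 gene groups in each library (points) with the mean and SD of 3 libraries (bars), with the vertical axes starting at 0. The members, the mitochondrial rRNA, the mitochondrially encoded mRNAs and the nuclear respiratory chain have tSema4B libraries below vector libraries in both conditions, whereas the unstimulated cytosolic ribosomal protein sums overlap.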

How the data were processed

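Bulk RNA-seq of 12 libraries was analysed. The authors made full-length cDNA by SMART-Seq2 with Nextera XT libraries, screened reads with FastQ Screen, aligned them to GRCm38.p4 with STAR 2.7.9a, counted them with htseq-count and deposited a signal per gene, the read count divided by the library's DESeq2 size factor. The annotation and strand setting are not given in the sources used here. Each value was a whole multiple of 0.593 to 1.55 per read (100% of values within 0.01), so whole reads were recovered. The values were tested as log2(normalized count + 1) with limma 3.58.1 (R 4.3.3) over all 12 libraries for genes that reached 10 normalized counts in 3 or more libraries. P-values were two-sided and adjusted by Benjamini-Hochberg over 11998 genes, and the test was checked on simulated data. Fold changes are on that scale and understate low genes. An exact permutation test of 3 against 3 cannot go below p = 0.1 and was not used. Members and lists were chosen with earlier results of these data known. Named with values were up to 6 members per contrast and direction with the smallest adjusted p at 0.05 or less, the 3 smallest interaction p, the 3 highest and 3 lowest per kilobase, members of special role and those failing the filter. Mrps33 and the other genes listed by name beside a count were added after their values were seen. Alternatives were edgeR 4.0.16 and DESeq2 1.42.0 on recovered reads, other pseudocounts (0.5, 10), filters and scalings, a replicate block, the 6 libraries of a contrast alone, each library left out, and, added after seeing the data, thinned reads.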

Additional observations from a re-analysis of the deposited data

How the results depend on the processing

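None of the 56 differences called for a member in a comparison changed direction under any alternative run, but 102 of the 324 that were not called did. Of the results under an alternative for the differences printed with a value, 631 kept their direction and their side of the threshold, 42 lost the call, 4 gained one (Mrps22, NE in vector cells) and 14 changed direction. The 14 were in 5 differences near 0. With the same total over all genes, the unstimulated tSema4B difference of Mrpl19 was 0.0191 and the difference of Mrps18a after NE 0.0506. For Mrpl19 it was 0.0179 with edgeR and 0.0289 with DESeq2, and for Mrps21 0.0142 with thinned reads. With 1 library left out, the unstimulated difference ranged from -0.15 to 0.22 in Mrpl19, -0.195 to 0.00528 in Mrpl28, -0.17 to 0.14 in Mrpl34 and -0.25 to 0.12 in Mrps21, and that of Mrps18a after NE from -0.12 to 0.0112. Without a filter on low values, 9 members were lower in unstimulated tSema4B cells (11.8%, against 3.37% of all genes) and 7 were raised by NE in vector cells (9.21%, against 2.88%). With the same total over all genes in each library, 7 were raised by NE in vector cells (9.21%, against 5.75%). Fitted to the 6 libraries of the contrast alone, 22 were raised in vector cells (28.9%, against 10.3% of all genes) and 0 in tSema4B cells (against 2.10% of all genes; 4 members at an unadjusted p under 0.05 by limma). With 1 library left out, 5 to 14 members were lower in unstimulated tSema4B cells (6.58 to 18.4%, against 4.88 to 6.92% of all genes). After NE, 18 to 33 were lower (23.7 to 43.4%, against 8 to 10.5%). NE raised 3 to 6 in vector cells (3.95 to 7.89%, against 3.72 to 5.13%) and 1 to 3 in tSema4B cells (1.32 to 3.95%, against 2.695 to 3.323%). The cause of these changes was not tested. Scaling to nuclear genes moved the unstimulated tSema4B median of all genes to -0.09, and the members' median relative to it was -0.26, as in the analysis reported. The replicate numbers do not pair the libraries: over 18 pairs of groups and numbers the correlation of deviations was -0.047 to 0.0282, and none was over 0.1. With a replicate block, 11 members were lower without stimulation (14.5%, against 7.10% of all genes) and 26 after NE (34.2%, against 10.8%), and NE raised 8 in vector cells (10.5%, against 6.48%) and 2 in tSema4B cells (2.63%, against 3.48%), with an interaction in 0. Members with few reads, such as Mrpl23 at 0 to 20 reads per library, could show only large differences at this depth.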
